A study of Homo sapiens with 6 samples.

Results

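Alpha and beta tubulins are the subunits of microtubules, and 10 of their genes were followed in cells labelled as MHCC97-H, a liver cancer line. The genes were TUBA1A, TUBA1B, TUBA1C and TUBA4A, which encode alpha tubulins, and TUBB, TUBB2A, TUBB3, TUBB4A, TUBB4B and TUBB6, which encode beta tubulins. They were found by symbol among the 62710 Ensembl genes of the count table, and all 10 of 10 passed the count filter that 16877 genes passed. The set was chosen by gene family with the measured levels in all groups, and the differences between them, already known. Values of these genes are therefore given as a description. Where the fit over all genes called one of them, or lost the call, that is stated, and nothing is supported with it.

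Polyadenylated RNA was sequenced in 6 libraries of unmodified (wild-type) cells, 2 from cells given 40 µM chloroquine for 16 h, 2 from cells given 0.2 mM melatonin for 16 h, and 2 from untreated cells. Chloroquine is a weak base that accumulates in lysosomes and blocks autophagy, and melatonin is the hormone of the pineal gland. The chloroquine libraries held 20547241 and 19744127 counts, the melatonin libraries 23311452 and 15993730, and the untreated libraries 16716600 and 18514180. No library of cells given only a solvent is labelled, so the effect of an agent and that of its solvent or of handling cannot be told apart. Whether the 2 libraries of a group were grown apart is not labelled, and p-values thus measure only the spread between those libraries, which may be technical. In such bulk RNA, fewer cells of a kind and less RNA per cell cannot be told apart. Of 13 hepatocyte markers 11 stayed under 1 CPM (a count scaled to a common library total) in every library, with the albumin gene ALB at no more than 0.0518 CPM. CPS1, an enzyme of the urea cycle, was the hepatocyte marker with the highest level, with up to 1361 CPM, and the cholangiocyte keratin KRT7 reached 973 CPM. The hepatocyte markers summed to 1187 to 1220 CPM in chloroquine, 437 to 445 CPM in melatonin and 1328 to 1363 CPM in untreated libraries. The 7 cholangiocyte markers summed to 793 to 796, 407 to 414 and 937 to 992 CPM in that order of groups. Most of the hepatocyte sum came from CPS1 and most of the cholangiocyte sum from KRT7. With chloroquine KRT7 and KRT19 were called lower. EPCAM was called higher, with 13.5 and 11.5 CPM in chloroquine and 9.44 and 8.69 CPM in untreated libraries. Of 12 neuronal markers, which matter here because several tubulin isotypes are typical of neurons, 7 stayed under 1 CPM in every library and STMN2, DCX and GAP43 had no count. The summed neuronal markers stood at 343 to 359 CPM in chloroquine, 232 to 249 CPM in melatonin and 342 to 362 CPM in untreated libraries, most of it from the neurofilament gene NEFH. NEFH was called lower with melatonin, with 151 and 167 CPM in melatonin and 320 and 298 CPM in untreated libraries, and NEFL was called lower with chloroquine, with 21.9 and 21.6 CPM in chloroquine and 27.1 and 28.4 CPM in untreated libraries. In the other direction SNAP25 (no more than 1.99 CPM in melatonin and 0.332 CPM in untreated libraries), SYT1 (1.72 and 1.21 CPM in melatonin, 0.368 and 0.498 CPM in untreated libraries) and MAP2 were called higher with melatonin. The part of these markers in the tubulin values was not tested. The summed markers of fibroblasts (8), leukocytes (9) and endothelium (6) reached no more than 36.0, 8.08 and 6.92 CPM in any library.

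Tubulin is made as a heterodimer of 1 alpha and 1 beta chain. Newly made chains are passed by prefoldin to the chaperonin CCT and are joined by the cofactors TBCA to TBCE. Cells also watch the amount of free tubulin. When it is high, TTC5 binds the first residues of tubulin chains as they leave the ribosome and, through SCAPER, brings in the deadenylase CCR4-NOT, so that tubulin mRNAs under translation are degraded. Humans have several alpha and beta genes, called isotypes, whose proteins differ mostly near the end of the chain. TUBB, TUBA1B and TUBA1C are made in most dividing cells, TUBB3 and TUBB4A mainly in the nervous system, and TUBB4B in many tissues and in cilia.

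The coding starts are shown because TTC5 reads the peptide that they encode. The first 30 coding bases of the principal GENCODE 29 transcript (GRCh38), written 5′ to 3′ on the coding strand, have the first 4 codons in capitals.
TUBA1A, TUBA1B and TUBA1C: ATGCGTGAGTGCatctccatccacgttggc
TUBA4A: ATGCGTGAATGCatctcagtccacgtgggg
TUBB: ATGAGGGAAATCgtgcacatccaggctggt
TUBB4B: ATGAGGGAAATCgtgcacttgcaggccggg
TUBB3: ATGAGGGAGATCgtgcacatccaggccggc
TUBB6: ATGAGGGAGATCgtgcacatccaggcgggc
TUBB2A: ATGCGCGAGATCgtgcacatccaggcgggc
TUBB4A: ATGCGGGAGATCgtgcacctgcaggccggc
TUBA1A, TUBA1B and TUBA1C were identical over all 30 bases, TUBB and TUBB4B shared the 12 capitals, and so did TUBB3 and TUBB6. Over the whole coding sequence the alpha members were 84.6% to 97.2% identical in pairs, with TUBA1A and TUBA1B the closest. The beta members were 81.1% to 90.1% identical.

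The 3 TUBA1 genes lie side by side on chromosome 12, with TUBA1B (ENSG00000123416) at chr12:49127782-49131397 on the minus strand, TUBA1A (ENSG00000167552) at chr12:49184796-49189324 on the minus strand and TUBA1C (ENSG00000167553) at chr12:49188736-49274603 on the plus strand (GRCh38, GENCODE 29). TUBA4A (ENSG00000127824) lies at chr2:219249711-219278170, minus strand. TUBB (ENSG00000196230), at chr6:30720201-30725426 on the plus strand, and TUBB2A (ENSG00000137267), at chr6:3153669-3157526 on the minus strand, share a chromosome. TUBB3 (ENSG00000258947) lies at chr16:89921392-89938761, plus strand. TUBB4A (ENSG00000104833) lies at chr19:6494319-6502848, minus strand. TUBB4B (ENSG00000188229) lies at chr9:137241213-137243707, plus strand. TUBB6 (ENSG00000176014) lies at chr18:12307669-12344320, plus strand.

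Reads of 1 isotype could be counted for another where their transcripts are the same. Of all 100-base windows of their transcripts, 13.5% for TUBA1B, 9.34% for TUBA1A and 6.81% for TUBA1C also occurred in another gene, mostly in one of the other TUBA1 genes. The share was 48.9% for TUBB2A, mostly with TUBB2B, so the TUBB2A values are uncertain. It was 29.7% for TUBB3, nearly all with the readthrough gene AC092143.1, which had at most 1 count. Exons of AC092143.1, on the same strand, cover 35.8% of TUBB3 exons, so the TUBB3 values are uncertain too. The share of windows was 3.80% for TUBB, 2.09% for TUBB4B, 0.890% for TUBA4A, and 0% for TUBB4A and TUBB6. The sources used here give neither the read length nor whether counting used strand. Exons of AFG3L2, a mitochondrial protease gene on the other strand with 1497 to 2177 counts a library, cover 20.3% of TUBB6 exons, so the TUBB6 values are uncertain. TUBA1A and TUBA1C, on opposite strands, overlap over 14.3% and 10.6% of their exons. Exons of STK16, on the other strand with 161 to 292 counts a library, cover 15.4% of TUBA4A exons. Antisense genes cover 36.6% of TUBA1B exons and 16.0% of TUBB exons, with no more than 16 and 28 counts a library. What these overlaps do to the values depends on the strand setting.

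Promoters are shown for TUBA1B, which was lower with both agents, and TUBB2A, whose groups overlapped in every comparison. Each is the 250 bases before the RefSeq start (GRCh38.p14), 5′ to 3′ on the strand of the gene, with CCAAT and GGGCGG on either strand in capitals.
TUBA1B, chr12:49131396-49131645, minus strand: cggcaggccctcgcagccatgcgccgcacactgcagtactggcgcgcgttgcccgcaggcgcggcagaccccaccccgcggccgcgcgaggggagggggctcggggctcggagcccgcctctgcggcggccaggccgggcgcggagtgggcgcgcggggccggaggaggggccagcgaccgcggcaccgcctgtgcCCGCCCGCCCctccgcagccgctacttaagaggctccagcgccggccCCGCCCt
TUBB2A, chr6:3157545-3157794, minus strand: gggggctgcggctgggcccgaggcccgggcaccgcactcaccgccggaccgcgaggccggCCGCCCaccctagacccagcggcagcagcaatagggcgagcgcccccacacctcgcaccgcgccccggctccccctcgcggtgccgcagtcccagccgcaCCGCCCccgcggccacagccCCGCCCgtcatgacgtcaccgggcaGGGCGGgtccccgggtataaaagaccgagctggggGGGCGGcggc
CCAAT is the core of the site of the factor NF-Y, and GGGCGG is the GC box bound by Sp1. TUBA1B held 3 GC boxes and no CCAAT, and TUBB2A held 5 GC boxes and no CCAAT, with overlapping matches counted. Of the other members with a single RefSeq start, TUBA1A held 2 CCAAT and TUBB4B 3 CCAAT and neither a GC box, while TUBA4A held 4 GC boxes and no CCAAT. Among 35116 promoters of the same length, 32% held CCAAT and 42.6% held GGGCGG.

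The major isotypes were TUBB and TUBB4B among the beta members and TUBA1B and TUBA1C among the alpha members. Levels are compared between genes as TPM, the counts divided by the length of the merged exons and scaled to a common sum per library. In untreated cells TUBB had 1614 ± 8.72 TPM, TUBB4B 971 ± 12.8 TPM, TUBA1B 827 ± 17.5 TPM and TUBA1C 469 ± 30.3 TPM (SD, n = 2 each). These 4 genes ranked 51, 84, 108 and 231 by level among the 58274 genes with a length. TUBA1A followed with 299 and 294 TPM, TUBA4A with 177 ± 1.75 TPM and TUBB6 with 101 ± 3.56 TPM. The minor isotypes TUBB2A, TUBB3 and TUBB4A had 24.5 ± 1.70, 7.98 ± 1.41 and 2.30 ± 0.800 TPM. The order was the same in chloroquine-treated cells, where TUBB had 1429 ± 5.96 TPM and TUBB4A 1.16 ± 0.310 TPM, and in both groups no neighbours in the order overlapped.

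In melatonin-treated cells TUBB had 892 and 927 TPM and TUBB4B 871 and 912 TPM, so that the top 2 overlapped. TUBB6, with 75.8 and 78.2 TPM, stood above TUBA4A, with 66.6 and 73.3 TPM. The other neighbours in the melatonin order did not overlap. With the length of the longest transcript in place of merged exons, melatonin libraries had 777 and 811 TPM of TUBB against 681 and 716 TPM of TUBB4B, which did not overlap, and TUBA1C (381 TPM) stood above TUBA1B (332 TPM).

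**Figure D1:**
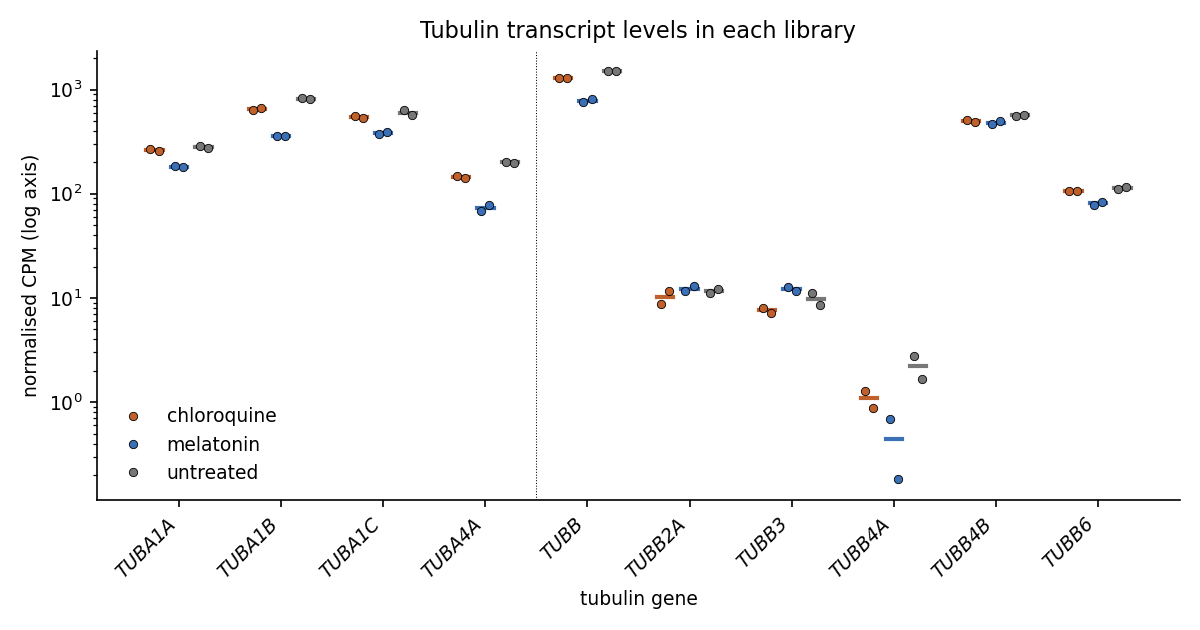
Level of each tubulin gene in each library in normalised CPM, on a log axis. Points are libraries and bars are means of 2 libraries. Melatonin points are below untreated points for 8 of the 10 genes, overlap them for TUBB2A and are above them for TUBB3.

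Among the alpha tubulins all 4 members were lower in cells given either agent, and lower with melatonin than with chloroquine. TUBA1B, the major alpha isotype here, had 633 and 670 CPM (normalised by TMM factors) in chloroquine, 355 and 361 CPM in melatonin and 832 and 802 CPM in untreated libraries. TUBA4A, an alpha isotype whose gene does not encode the final tyrosine, had 147 and 142 CPM in chloroquine, 68.2 and 77.1 CPM in melatonin and 202 and 198 CPM in untreated libraries. For both genes the 3 groups stood apart in the same order, with melatonin lowest and untreated highest. The log2 difference of TUBA1B from untreated was -0.33 ± 0.04 with chloroquine and -1.19 ± 0.04 with melatonin (SE of the edgeR fit), the second a level of 0.438 times untreated. That of TUBA4A was -0.47 ± 0.04 with chloroquine and -1.47 ± 0.05 with melatonin, the second a level of 0.361 times untreated.

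TUBA1C had 553 and 530 CPM in chloroquine, 377 and 394 CPM in melatonin and 630 and 571 CPM in untreated libraries. TUBA1A, an alpha isotype best known from the developing brain, had 266 and 256 CPM in chloroquine, 184 and 180 CPM in melatonin and 284 and 277 CPM in untreated libraries. Neither gene overlapped between any 2 groups, and the melatonin libraries stood well below the others. With melatonin the log2 difference from untreated was -0.64 ± 0.04 for TUBA1C and -0.62 ± 0.04 for TUBA1A. With chloroquine it was -0.15 ± 0.04 for TUBA1C and -0.10 ± 0.04 for TUBA1A, and neither call held in all settings. Without untreated replicate 1 the TUBA1C difference was -0.07 and without chloroquine replicate 2 it was -0.12. The TUBA1A difference was -0.13 without chloroquine replicate 1, -0.07 without chloroquine replicate 2, -0.08 without untreated replicate 1 and -0.12 without untreated replicate 2. In each of these 6 fits the gene was no longer called. With all libraries kept, TUBA1A was also not called by DESeq2 (-0.10) or with no count filter (-0.09).

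On the log2 scale melatonin differences ran from -2.18 to 0.34 among the beta tubulins and from -1.47 to -0.62 among the alpha tubulins. Both ends of the beta range came from members with low levels, TUBB4A and TUBB3. The beta members with higher levels, TUBB, TUBB6 and TUBB4B, were at -0.95, -0.51 and -0.24, so no wider spread is read from the range. TUBB, the major beta isotype, had 1293 and 1301 CPM in chloroquine, 753 and 802 CPM in melatonin and 1498 and 1500 CPM in untreated libraries. TUBB6, a beta isotype made in many tissues, had 105 and 107 CPM in chloroquine, 78.3 and 83.0 CPM in melatonin and 112 and 117 CPM in untreated libraries. The groups of TUBB and of TUBB6 stood apart in the order seen for the alpha members. On the log2 scale TUBB differed from untreated by -0.21 ± 0.03 with chloroquine and -0.95 ± 0.04 with melatonin, the second a level of 0.518 times untreated. TUBB6 differed by -0.11 ± 0.04 with chloroquine and -0.51 ± 0.05 with melatonin.

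TUBB4B, a beta isotype that also serves cilia, had 506 and 488 CPM in chloroquine, 462 and 497 CPM in melatonin and 563 and 570 CPM in untreated libraries. Both treated groups were below the untreated libraries, but chloroquine and melatonin overlapped. The log2 difference of TUBB4B from untreated was -0.19 ± 0.04 with chloroquine and -0.24 ± 0.04 with melatonin, and between chloroquine and melatonin it was 0.05 ± 0.04.

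TUBB2A, TUBB3 and TUBB4A, the beta isotypes with the lowest levels, went different ways. TUBB2A had 8.74 and 11.7 CPM in chloroquine, 11.6 and 13.1 CPM in melatonin and 11.2 and 12.2 CPM in untreated libraries, and its groups overlapped throughout. TUBB3, the beta isotype used as a marker of neurons, had 7.99 and 7.25 CPM in chloroquine, 12.8 and 11.7 CPM in melatonin and 11.03 and 8.52 CPM in untreated libraries. Melatonin stood above and chloroquine below both untreated libraries of TUBB3, which differed from each other by more than the gap to either group. The log2 difference of TUBB3 was -0.35 ± 0.14 with chloroquine and 0.34 ± 0.13 with melatonin. Without untreated replicate 1 the TUBB3 differences were -0.16 with chloroquine and 0.52 with melatonin, and without untreated replicate 2 they were -0.53 with chloroquine and 0.15 with melatonin. Without melatonin replicate 1 the melatonin difference was 0.27, and neither 0.15 nor 0.27 was called. TUBB4A, a brain isotype, had 26 and 17 counts in chloroquine, 17 and 3 counts in melatonin and 45 and 30 counts in untreated libraries. The treated libraries of TUBB4A were below the untreated ones, and the second melatonin library was at 0.181 CPM, the level that a count of 0 allows there (3 counts, counting error only). TUBB4A differed from untreated by -1.01 ± 0.38 with chloroquine and -2.18 ± 0.43 with melatonin on the log2 scale. Without melatonin replicate 1 its melatonin difference was -3.55, and without melatonin replicate 2 it was -1.65. Its chloroquine difference was -0.60 without untreated replicate 1 and -1.34 without untreated replicate 2.

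In the fit over all tested genes, where a gene is called at an edgeR quasi-likelihood p under 0.05 after Benjamini-Hochberg adjustment, chloroquine against untreated called 3413 genes (20.2%), 1610 higher (9.54%) and 1803 lower (10.7%). No member was called higher and 6 of 10 lower (TUBA1A, TUBA1B, TUBA1C, TUBA4A, TUBB and TUBB4B). At an unadjusted p under 0.05 edgeR had 0 members higher and 9 lower, and DESeq2, with adjustment, 0 higher and 5 lower. The shares above are not the background of these counts. DESeq2 called 1724 genes in all, and the share of all genes at an unadjusted p was not worked out. Melatonin against untreated called 8782 genes (52.0%), 25.5% higher and 26.5% lower. Of the members, TUBB3 was called higher, TUBB2A was not called and the other 8 were called lower. Chloroquine against melatonin called 47.0% of genes, 23.9% higher and 23.1% lower, with 7 members higher and TUBB3 lower. The groups did not overlap for 9 of 10 members with chloroquine against untreated, where 57.6% of all tested genes did not overlap. For melatonin it was 9 of 10 members and 74.1% of genes, and for chloroquine against melatonin 8 of 10 members and 71.8%. The members were chosen with these contrasts known, so nothing is read from these counts. Both comparisons with untreated cells use the same untreated libraries, and the direct comparison uses the treated libraries of both. The median log2 difference of the members was -0.20 with chloroquine and -0.63 with melatonin, where all tested genes had medians of -0.0030 and 0.0053.

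Transcripts rich in G and C were lower on average in treated libraries. The log2 difference changed by -0.13 per 10% GC with chloroquine and by -0.20 per 10% GC with melatonin over all genes, whose median GC content was 48.2%. All members lay above that median, between 51.6% for TUBA1C and 62.0% for TUBB4A. Offsets that took out the trend with GC content and length in each library made every member's difference from untreated less negative or more positive. With them TUBA1B was at -0.24 with chloroquine and -1.06 with melatonin, TUBA4A at -0.33 and -1.26, and TUBB at -0.15 and -0.86. TUBB4B was at -0.03 with chloroquine and at 0.02 with melatonin, so that its sign with melatonin turned and it was called with neither agent. TUBB6 was at 0.08 with chloroquine, against -0.11 without offsets, and at -0.21 with melatonin, where it was still called. TUBB2A was at 0.33 and TUBB3 at 0.64 with melatonin, both called higher. With chloroquine 3 members (TUBA1B, TUBA4A and TUBB) were called with the offsets, all lower, where 1821 genes were called in all.

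**Figure D2:**
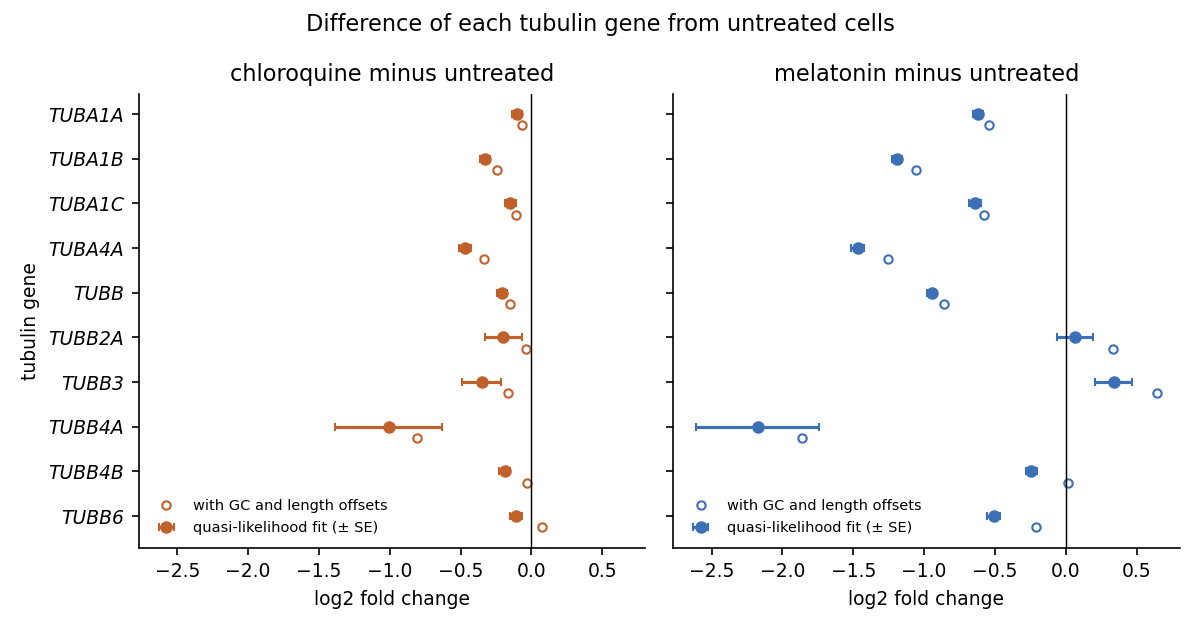
Log2 fold change of each tubulin gene in chloroquine-treated (left) and melatonin-treated (right) against untreated cells, as filled points with the SE of the edgeR fit and as open points with the GC and length offsets. TUBA4A and TUBA1B, at -1.47 and -1.19 with melatonin, keep most of the difference with the offsets, while TUBB4B lies at 0.02.

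Summed over their members, alpha tubulin mRNAs had 1599 and 1598 CPM in chloroquine, 985 and 1012 CPM in melatonin and 1948 and 1848 CPM in untreated libraries. Beta tubulin mRNAs had 1923 and 1916 CPM in chloroquine, 1318 and 1407 CPM in melatonin and 2198 and 2210 CPM in untreated libraries. Both sums were in the order melatonin, chloroquine, untreated from low to high, with no overlap. The log2 difference of the alpha sum was -0.25 with chloroquine and -0.93 with melatonin, and that of the beta sum -0.20 and -0.69. Neither sum was worked out with the GC and length offsets, which made every member's difference from untreated less negative or more positive. The 10 members took 0.344% of all counts in chloroquine, 0.246% in melatonin and 0.400% in untreated cells (means of 2 libraries).

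The makeup of each sum also differed with melatonin. By TPM, TUBB gave 58.9% ± 0.539 of the beta members in chloroquine, 47.4% ± 0.109 in melatonin and 59.3% ± 0.216 in untreated cells (SD, n = 2 each). TUBB4B gave 35.9% ± 0.755, 46.5% ± 0.164 and 35.7% ± 0.149 in chloroquine, melatonin and untreated cells, so that by merged exon length TUBB and TUBB4B were close to equal with melatonin and not in the other groups. Of the alpha members TUBA1B gave 44.4% ± 1.67 in chloroquine, 39.4% ± 0.187 in melatonin and 46.7% ± 0.425 in untreated cells. TUBA4A gave 8.76% and 8.48% in chloroquine, 6.66% and 7.34% in melatonin and 9.87% and 10.2% in untreated libraries. TUBA1C gave 28.4% ± 0.932, 32.7% ± 0.416 and 26.5% ± 0.911, and TUBA1A 18.6% ± 0.539, 20.9% ± 0.708 and 16.8% ± 0.282, in the same group order. The shares of TUBA1A and TUBA1C were thus larger with melatonin although their levels were lower. The ratio of the alpha sum to the beta sum was 0.627 ± 0.00417 in chloroquine, 0.522 ± 0.0156 in melatonin and 0.651 ± 0.0256 in untreated cells. TUBB3 gave no more than 0.611% and TUBB4A no more than 0.106% of the beta members in any library.

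**Figure D3:**
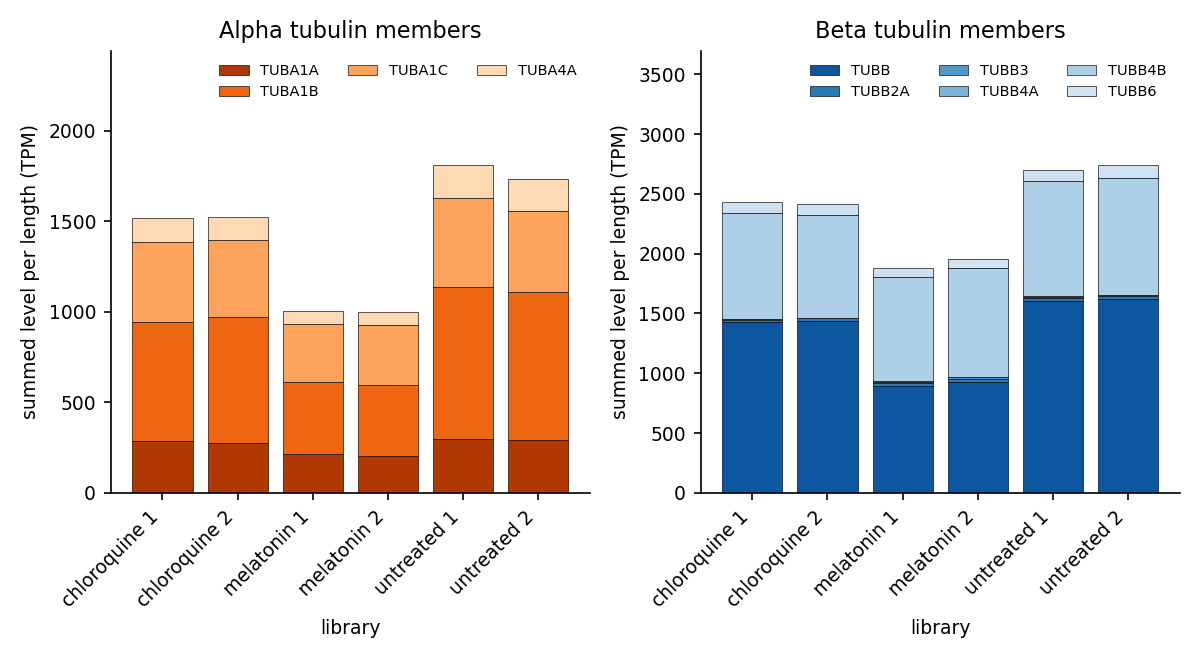
Level of the alpha (left) and beta (right) tubulin members per length in each library in TPM, stacked by gene. The 2 melatonin columns are the lowest in both panels, and TUBB and TUBB4B are of similar height only there.

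The genes whose log2 levels over the 6 libraries lay closest to 3 of the members, each centred on its own mean, were looked up among 8606 well-expressed genes. For TUBA1B they were EPS8L2, FOXF1 and CHD3, with root mean square differences of 0.0401, 0.0411 and 0.0470 on the log2 scale. For TUBB they were ENO1, ACSL5 and TPI1, with differences of 0.0233, 0.0235 and 0.0292. For TUBA1A they were KHSRP, LMNB2 and INF2, with differences of 0.0220, 0.0234 and 0.0243. The 6 libraries form 3 groups, so likeness here is mostly likeness of 3 group levels.

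The rest of the tubulin family and the genes that fold, read, modify and use tubulin were taken as 9 lists. Their calls come from the edgeR fit over all genes. Of all tested genes 9.54% were higher and 10.7% lower with chloroquine. With melatonin 25.5% were higher and 26.5% lower. Nothing is read from list counts near these shares. For counts at an unadjusted p the share of all genes was not worked out. Of 15 other tubulin genes 7 were tested. With chloroquine none was called, none passed an unadjusted p under 0.05 in edgeR and none was called by DESeq2. With melatonin 2 were higher and none lower. The list's median was -0.02 with chloroquine and 0.23 with melatonin, and 0.05 and 0.45 with the offsets. TUBE1, epsilon tubulin of the centriole, had 63.1 and 59.4 CPM in melatonin and 33.4 and 30.6 CPM in untreated libraries, a log2 change of 0.94 ± 0.07 (adjusted p = 4.25e-12). TUBG2, a gamma tubulin, rose by 0.30 ± 0.09 (adjusted p = 0.00763), but was at 0.14 and not called without untreated replicate 1, and at 0.60 with the offsets. TUBG1, the main gamma tubulin, was at -0.09 ± 0.04 (adjusted p = 0.103) and turned to 0.14, called higher, with the GC and length offsets. With chloroquine TUBG1 was at -0.08 ± 0.04 (adjusted p = 0.205) and TUBB2B at 0.10 ± 0.46 (adjusted p = 0.916). TUBB2B, the near copy of TUBB2A, was at 0.25 ± 0.45 with melatonin (adjusted p = 0.668). TUBE1 thus stood higher with melatonin where 8 of the alpha and beta members stood lower.

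The gamma-tubulin ring complex starts new microtubules. With chloroquine 1 of its 11 genes was higher and 3 lower, where all tested genes had 9.54% and 10.7%. With melatonin 3 were higher and 4 lower, near the 25.5% and 26.5% of all tested genes. MZT2A, a small subunit that helps to recruit the complex, fell by 0.66 with chloroquine (SE 0.09, adjusted p = 8.11e-06), and its log2 change with melatonin was -1.13 ± 0.10 (adjusted p = 1.71e-10). It had 14.9 and 16.1 CPM in chloroquine, 10.8 and 11.7 CPM in melatonin and 23.3 and 25.7 CPM in untreated libraries. MZT2B changed by -0.46 ± 0.11 with chloroquine (adjusted p = 0.00341) and by -0.99 ± 0.12 with melatonin (adjusted p = 5.09e-08), but MZT2A and MZT2B are near-identical copies whose reads could be split between them. With the offsets MZT2B was at -0.13 with chloroquine and not called, and at -0.45 with melatonin and still called. The list's median was -0.08 with chloroquine and -0.09 with melatonin, and 0.02 and -0.11 with the offsets, so that its sign with chloroquine turned.

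The list of the CCT chaperonin and prefoldin, which fold new tubulin and actin, held 16 genes, with PDCL3 and TXNDC9 counted beside the subunits. With melatonin 10 fell and none rose, with a median of -0.18, and the median with chloroquine was 0.02. DESeq2, which called 6293 genes in all with melatonin, had 9 of the list lower and none higher. Its share of all genes in each direction was not worked out. With the offsets the medians were -0.18 with melatonin and -0.01 with chloroquine, where the sign turned. CCT5 had 775 and 807 CPM in melatonin and 1010 and 1029 CPM in untreated libraries, a change of -0.37 ± 0.03 (adjusted p = 4.47e-10). CCT7 changed by -0.34 ± 0.03 (adjusted p = 2.66e-09). With chloroquine edgeR called none of the 16, 2 were higher and none lower at an unadjusted p under 0.05, and DESeq2 called none. CCT5 had 1018 and 1024 CPM in chloroquine libraries, close to the untreated ones. Of the 8 folding cofactor genes, 1 was lower with chloroquine, namely TBCB, an alpha tubulin cofactor, at -0.27 ± 0.08 (adjusted p = 0.0117), and at -0.11 and not called with the offsets. Without any 1 of chloroquine replicate 1, chloroquine replicate 2 and untreated replicate 2, TBCB was not called either, at -0.27, -0.27 and -0.25. With melatonin 2 were higher and 2 lower, and the cofactor median was -0.05 with chloroquine and 0.09 with melatonin (-0.04 and 0.12 with the offsets). TBCCD1, a relative of the cofactor TBCC found at the centrosome, rose by 0.72 ± 0.09 (adjusted p = 1.20e-07), and TBCEL, which destabilises tubulin dimers, by 0.30 ± 0.08 (adjusted p = 0.00396). TBCEL was at 0.09 with the offsets and at 0.15 without untreated replicate 2, and was called in neither.

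Of the 13 genes of tubulin mRNA autoregulation none was called with chloroquine, with 1 higher and none lower at an unadjusted p under 0.05 in edgeR and none called by DESeq2. With melatonin 5 were higher and 5 lower, but 1 higher and 7 lower with the GC and length offsets. Under the offsets 8151 of all genes were called with melatonin. The share of all genes in each direction was not worked out there, so nothing is read from the 7. The list's median was 0.0064 with chloroquine and 0.02 with melatonin, and -0.06 and -0.20 with the offsets, so that both signs turned. TTC5, which reads the coding starts shown above, had 26.2 and 27.1 CPM in chloroquine, 33.4 and 34.1 CPM in melatonin and 27.6 and 27.2 CPM in untreated libraries. Its log2 change was -0.04 ± 0.08 with chloroquine (adjusted p = 0.760) and 0.30 ± 0.08 with melatonin (adjusted p = 0.00163). SCAPER was at 0.09 ± 0.09 with chloroquine (adjusted p = 0.533) and 0.23 ± 0.09 with melatonin (adjusted p = 0.0248). With the offsets TTC5 was at 0.13 and SCAPER at 0.06 with melatonin, neither called. SCAPER was also not called without melatonin replicate 1 (0.13), untreated replicate 1 (0.25) or untreated replicate 2 (0.20). CNOT2, a core subunit of CCR4-NOT, changed by -0.37 ± 0.04 with melatonin (adjusted p = 1.22e-08), and CNOT4, a ubiquitin ligase of that complex, by 0.36 ± 0.09 (adjusted p = 0.000964). CNOT4 was not called with the offsets (0.16) or without melatonin replicate 2 (0.20), and CNOT2 was at -0.65 with the offsets.

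Enzymes that modify tubulin were tested for 21 of 25 genes. With chloroquine none was higher and 3 lower, and with melatonin 6 were higher and 4 lower, at medians of -0.06 with chloroquine and 0.03 with melatonin (-0.04 and 0.08 with the offsets). TTLL12, a protein of the tubulin tyrosine ligase family, changed by -0.25 ± 0.06 with chloroquine (adjusted p = 0.00298) and by -0.73 ± 0.06 with melatonin (adjusted p = 7.61e-11). MATCAP1, which cuts the last tyrosine from alpha tubulin, changed by -0.43 ± 0.08 with chloroquine (adjusted p = 0.000509) and by -0.64 ± 0.09 with melatonin (adjusted p = 4.32e-07). TTL, which puts that tyrosine back, was at 0.03 ± 0.04 with chloroquine (adjusted p = 0.676) and -0.0057 ± 0.04 with melatonin (adjusted p = 0.921). HDAC6, a tubulin deacetylase, was at -0.19 ± 0.07 with chloroquine (adjusted p = 0.0479) and -0.0043 ± 0.07 with melatonin (adjusted p = 0.964). With the offsets HDAC6 (-0.09) and TTLL12 (-0.06) were not called with chloroquine, and TTL was called lower with melatonin (-0.14). TTLL12 was at -0.43 with melatonin and MATCAP1 at -0.28 with chloroquine and -0.40 with melatonin with the offsets, all still called. HDAC6 was also not called with chloroquine without chloroquine replicate 1 (-0.21), chloroquine replicate 2 (-0.17) or untreated replicate 2 (-0.15).

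Microtubule-binding and severing proteins were tested for 34 of 36 genes, with 2 higher and 7 lower with chloroquine and 13 higher and 14 lower with melatonin. Their median was -0.05 with chloroquine and 0.11 with melatonin, and 0.0029 and -0.0032 with the offsets, so that both signs turned. MAP2, a stabiliser of microtubules best known from dendrites and 1 of the neuronal markers above, had 11.2 and 13.8 CPM in chloroquine, 49.6 and 46.0 CPM in melatonin and 13.8 and 14.2 CPM in untreated libraries. Its change with melatonin was 1.77 ± 0.09 (adjusted p = 2.82e-15), and that of MAP1A, another neuronal stabiliser, 0.84 ± 0.11 (adjusted p = 2.81e-07). With chloroquine MAP1B changed by -0.46 ± 0.06 (adjusted p = 8.29e-07) and KIF18A, a kinesin that limits the length of spindle microtubules, by 0.44 ± 0.07 (adjusted p = 4.17e-05). STMN1, stathmin, which binds free tubulin dimers, changed by -0.14 ± 0.03 with chloroquine (adjusted p = 0.00264; -0.24 with the offsets) and by -0.30 ± 0.03 with melatonin (adjusted p = 2.56e-08).

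Transport motors were tested for 33 of 37 genes, with 5 higher and 5 lower with chloroquine and 16 higher and 9 lower with melatonin. Their median was -0.03 with chloroquine and 0.15 with melatonin (-0.04 and 0.05 with the offsets). KIF5C, a kinesin heavy chain typical of neurons, had 6.54 and 6.41 CPM in melatonin and 2.27 and 2.88 CPM in untreated libraries, a change of 1.32 ± 0.21 (adjusted p = 7.27e-06). BICD1, an adaptor of dynein, rose by 0.36 ± 0.07 with chloroquine (adjusted p = 0.000236) and by 0.79 ± 0.06 with melatonin (adjusted p = 5.77e-11). KIF3A, a kinesin-2 motor subunit, rose by 0.32 ± 0.05 with chloroquine (adjusted p = 0.000112). With the offsets and chloroquine BICD1 was at 0.24 and KIF3A at 0.18, both still called.

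Of the 16 genes of mitosis 15 fell and none rose with melatonin, with a median of -0.50. PLK1, a kinase of the spindle, had 89.0 and 96.3 CPM in melatonin and 154 and 155 CPM in untreated libraries, a change of -0.74 ± 0.04 (adjusted p = 3.82e-14). UBE2C, a ubiquitin-conjugating enzyme of mitotic exit, changed by -0.91 ± 0.05 (adjusted p = 4.93e-15) and the proliferation marker MKI67 by -0.58 ± 0.04 (adjusted p = 3.82e-13). With chloroquine 3 were higher and 2 lower, at a median of -0.06, among them CENPF, a kinetochore protein, at 0.33 ± 0.04 (adjusted p = 1.19e-07) and CDC20, which activates the anaphase-promoting complex, at -0.22 ± 0.04 (adjusted p = 6.87e-05). CDC20 was at -0.09 and not called with the offsets, under which the list's medians were -0.02 with chloroquine and -0.51 with melatonin. MKI67 was at 0.03 ± 0.04 with chloroquine (adjusted p = 0.690). The part of these levels in the tubulin values was not tested.

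**Figure D4:**
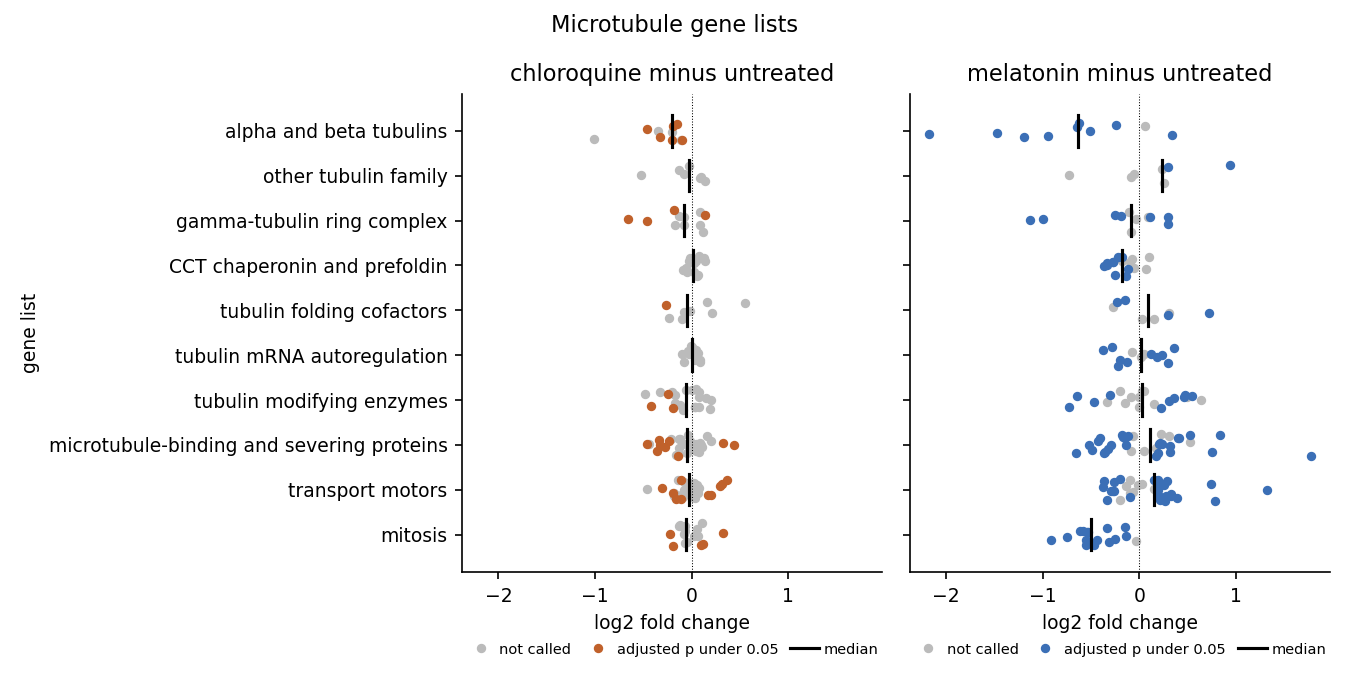
Log2 fold change of each tested gene of the alpha and beta tubulins and of the 9 lists, with chloroquine (left) and melatonin (right) against untreated cells. Coloured points have an adjusted p under 0.05 and black bars are medians. With melatonin the mitosis genes lie below 0, with a median of -0.50, and MAP2 is the highest point at 1.77.

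The table held 67 other tubulin genes and pseudogenes by symbol, of which 41 had no count in any library and 10 were tested. Adding them to the sums left the log2 difference of the alpha sum at -0.25 with chloroquine and -0.92 with melatonin, and that of the beta sum at -0.20 and -0.69.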

How the data were processed

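The deposited table holds raw counts of reads per Ensembl gene, 1 column per library. The authors made the counts from reads trimmed with fastp, and used genome build GRCh38, as the submitters' processing notes list. The sources used here name no aligner, annotation release or strand setting. Totals ran from 15993730 to 23311452, so that 3 counts, the limit a count of 0 allows, were 0.123 to 0.184 CPM. Symbols were found for 62639 IDs, and 58274 were placed by GENCODE 29, which gave coordinates, lengths and GC content.

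Counts were fitted in R 4.3.3 with edgeR 4.0.16 (filterByExpr, TMM, glmQLFit and glmQLFTest) over all 6 libraries with 1 term per group, and p-values were adjusted by the Benjamini-Hochberg method over the 16877 tested genes. The common biological coefficient of variation came to 0.0315 (degrees of freedom: 3 residual, 23.6 prior). Replicate libraries differed beyond counting error, at a chi-square over its degrees of freedom of 1.82 for chloroquine, 2.61 for melatonin and 2.31 for untreated. The tubulin genes, the 9 gene lists, the marker lists and the alternatives were chosen with earlier results of these data known. Named list genes were the 2 called members with the largest change for each agent, with TTC5, SCAPER, TTL, STMN1, HDAC6, TUBG1, TUBB2B and MKI67. Genes of like pattern had an average log2 CPM of at least 4. Alternatives were RLE size factors, library totals only, DESeq2 1.42.0, no count filter, a minimum mean count of 50, a robust dispersion, only the 2 groups compared, a replicate block, offsets for GC content and length (local regression, span 0.3), both together, and each library left out. The fit was tested on simulated data.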

Additional observations from a re-analysis of the deposited data

How the results depend on the processing

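With melatonin the calls of TUBA1A, TUBA1B, TUBA1C, TUBA4A, TUBB and TUBB6 kept their direction in all 16 alternative settings, and that of TUBB4A in the 15 that tested it. TUBA1B ranged from -1.23 to -1.06 there. With offsets for GC content and length TUBB4B with melatonin turned to 0.0176, and to 0.0177 with the replicate block added, and TUBG1 with melatonin turned to 0.1438 and 0.143, called higher. With chloroquine TUBA1B, TUBA4A and TUBB kept their calls in all 16 settings, while TUBA1A lost its call in 8, TUBA1C in 4 and TUBB4B in 2. TUBB4A gained one with chloroquine in 7 of 14 settings. TUBB3 with melatonin lost its call with DESeq2. Library totals only moved the median of all genes with melatonin by 0.10 on the log2 scale and gave sums of -0.1945 (beta, chloroquine), -0.8318 (alpha, melatonin) and -0.6001 (beta, melatonin), and of 0.5896 (alpha) and 0.4056 (beta) for chloroquine against melatonin.

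Counts of called genes depended more on the setting. With chloroquine against untreated 1724 genes were called by DESeq2, 1821 with the offsets and 1864 with the offsets and block, and 1974 (without chloroquine replicate 2), 2249 (without chloroquine replicate 1) and up to 3732 with a library left out, and chloroquine against melatonin had 5286 by DESeq2. Of the tubulin members 3 were called with chloroquine under the offsets, and 3 with the block added. For the lists with chloroquine, DESeq2 called 1 gene of the gamma-tubulin ring complex, 0 folding cofactors and 5 microtubule-binding genes. The offsets called 2 of the ring complex, 2 of autoregulation, 1 modifying enzyme and 5 motors, and with the block 2, 2, 1 and 4. The CCT list had 1 call with library totals only, with a mean count of at least 50, with only the 2 groups compared and with the robust dispersion, and the cofactors had 2 with only the 2 groups. With melatonin DESeq2 called 1 of the other tubulins, 2 cofactors and 5 genes of autoregulation. It called 6293 genes in all there, against 8782 by edgeR. Among the fits with a library left out, the lowest list counts with chloroquine came mostly without chloroquine replicate 2 (microtubule-binding, motors, mitosis). They also came without chloroquine replicate 1 or either untreated library for the ring complex. For cofactors they also came without untreated replicate 2, and for mitosis without untreated replicate 1. Among the same fits, the lowest with melatonin came without untreated replicate 1 (other tubulins), melatonin replicate 1 (ring complex) and untreated replicate 2 (autoregulation). With chloroquine the highest came without melatonin replicate 2 or untreated replicate 2 for CCT. For cofactors they came without either melatonin library or untreated replicate 1. With a library left out, chloroquine calls ranged from 2 to 4 for the ring complex, 0 to 1 for CCT, 0 to 2 for cofactors, 2 to 4 for modifying enzymes, 5 to 10 for microtubule-binding genes, 6 to 12 for motors and 3 to 6 for mitosis, and melatonin calls from 1 to 3 for the other tubulins, 4 to 7 for the ring complex and 5 to 10 for autoregulation. The cause was not tested.

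Over all tested genes, libraries with equal numbers did not deviate together (correlations of -0.0168, -0.00876 and -0.0405). Counting error of genes with few counts enters these values, so whether equal numbers pair the libraries is not known. With the replicate block 3436 genes were called with chloroquine and 8731 with melatonin, with 7 and 9 tubulin members. Where 1 library is left in a group, its spread is assumed to equal that of the other groups. Counts of 3 to 45 limit TUBB4A.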
